A study of Mus musculus with 2 samples.

Results

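The cells described here were the non-cycling tumor cells of the PyMT-N (Low-MAC) library, chosen barcode by barcode from their own transcripts. A PyMT-N barcode was taken when it had at least 2000 detected genes and at most 10% mitochondrial UMIs (unique molecular identifiers, the counted RNA molecules), when the keratin genes Krt8 and Krt18 together had at least 3 UMIs, when the endothelial genes Pecam1, Emcn, Flt1 and Kdr together had at most 1 UMI, when the immune genes Ptprc, Tyrobp and Laptm5 together had at most 1 UMI, when Col3a1, a fibroblast collagen, was below 3000 CPM (UMIs per 1000000 UMIs of the cell or group), and when 7 mitotic genes (Mki67, Top2a, Cdk1, Birc5, Ube2c, Cenpf and Nusap1) summed to less than 500 CPM. This left 3436 of the 6974 PyMT-N barcodes, 49.3% (exact 95% interval 48.1 to 50.4%), and of 14795 barcodes in both libraries. The keratin step lost 1542 of the 5386 barcodes that had passed the first 2 conditions, the endothelial step a further 249, the immune step 19, Col3a1 12 and the mitotic genes 128.

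The series holds 2 single-cell libraries, one of PyMT-M (High-MAC) tumors and one of PyMT-N tumors, where MAC refers to tumor macrophages. Both models are sub-lines of MMTV-PyMT mammary tumors, in which the mouse mammary tumor virus promoter drives the polyoma middle T oncogene. The labels give each model as a cell line. Cells grown in culture were injected with Matrigel into the mammary fat pad of female C57BL/6 mice of 6 to 8 weeks. Tumors of 3 animals per model were dissociated and depleted with beads of cells positive for CD45 or Ter119. The remaining cells were enriched with beads for CD31 and CD144 (VE-cadherin) and sorted for live cells positive for both endothelial proteins. Sorted cells were pooled into 1 library per model on the 10x Genomics 3′ platform. No other treatment is given for either model, a sub-line is 1 tumor source, and the transgene itself is not among the 33696 genes of the count tables. The labels call the cells endothelial. The barcodes described here were chosen for having at most 1 UMI of Pecam1, Emcn, Flt1 and Kdr together. Their low endothelial transcripts therefore largely follow from the selection and do not test this label. With 1 library per model no p-value was computed for any comparison. Intervals are exact 95% intervals for counting error only, and the model, the 3 pooled tumors and the library preparation cannot be told apart.

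The 3436 cells held 77672455 UMIs, with a median of 20702 UMIs per cell (4494 to 82669) and 4800.5 genes. They were compared with 3 groups. The first was 1213 endothelial cells of the same library (at least 5 UMIs of Pecam1, Flt1, Emcn and Kdr, at most 1 keratin UMI, median 12827 UMIs). The second was the 128 cycling tumor cells that met every condition except the mitotic one (median 34696 UMIs). The third was 1651 non-cycling PyMT-M cells that met every condition except the keratin one (median 21236 UMIs), because Krt18 had no UMI at all in them. The libraries shared 20 barcode sequences, 7 of them among the cells described here.

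Mineralized tissues such as bone and dentin are built on a collagen scaffold that binds acidic phosphoproteins. Osteopontin (Spp1), dentin matrix protein (Dmp1) and bone sialoprotein (Ibsp) belong to one such family, bind integrins and influence how calcium phosphate crystals form, while matrix Gla protein (Mgp) is a known inhibitor of calcification in soft tissue. Osteoblasts normally make these proteins together with type I collagen, alkaline phosphatase (Alpl) and the transcription factors Runx2 and Sp7 (osterix). Ectopic bone matrix proteins and microcalcifications are well known in mammary tumors.

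The non-cycling PyMT-N tumor cells carried abundant transcripts of these matrix proteins. Spp1 was their most abundant gene, at 25766 CPM or 2.58% of all UMIs, against 222 CPM in the endothelial cells of the same library. Mgp stood at 6877 CPM (6858 to 6895) against 71.6 CPM (67.7 to 75.7) in the endothelial cells. Dmp1 stood at 401 CPM (397 to 406) and Ibsp at 222 CPM (219 to 226), against 2.68 CPM (1.96 to 3.57) and 2.62 CPM (1.91 to 3.51). In the endothelial cells 75.6% of the 45 Ibsp UMIs and 26.1% of the 46 Dmp1 UMIs came from 1 cell each. Krt18, on which the cells were selected, was at 1018 CPM (1011 to 1025) and at 4.66 CPM in the endothelial cells.

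The endothelial levels of these genes were small shares of the tumor cells' levels. They came to 0.457% for Krt18, which the reference rule limited, 0.667% for Dmp1, 1.18% for Ibsp, 1.04% for Mgp and 0.863% for Spp1, and to 2.39% for Enpp1 and 10.1% for Fn1. The part of free RNA in them was not tested.

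The rest of the bone program was present only in pieces. Of 13 proteins of mineralized matrix, 7 were below 1 CPM in the tumor cells, among them Mepe (0.0772 CPM), Dspp (0.0129 CPM), the osteocalcins Bglap (0.554 CPM) and Bglap2 (0.27 CPM), and Ahsg, which had no UMI. Sparc, which binds collagen and calcium, was at 972 CPM but at 5974 CPM in the endothelial cells. Among regulators of osteoblasts and odontoblasts, Runx2 was at 78.0 CPM, Runx1 at 515 CPM, Sox9 at 116 CPM and the vitamin D receptor Vdr at 34.4 CPM, while Sp7, Dlx5, Dlx6 and Sost had no UMI in these cells. The non-cycling PyMT-M cells, in which Dmp1 had no UMI, had Runx2 at 72.5 CPM and Sox9 at 172 CPM. They had less Runx1 (148 CPM) and Vdr (0.557 CPM). Type I collagen was uneven, with Col1a1 at 87.7 CPM and its partner chain Col1a2 at 2.20 CPM.

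Genes that set the balance of phosphate and pyrophosphate were unevenly present. Ank, a membrane protein of pyrophosphate export, was at 2701 CPM, and Enpp1, the ectoenzyme that makes pyrophosphate, an inhibitor of mineral formation, was at 209 CPM. Slc20a1, a sodium-phosphate transporter, was at 627 CPM. Alpl, the phosphatase that removes pyrophosphate, was at 0.0515 CPM, and Phospho1, which releases phosphate inside matrix vesicles, had no UMI among 77672455, so that the counting floor of 3 UMIs over the group applies to it.

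**Figure D1:**
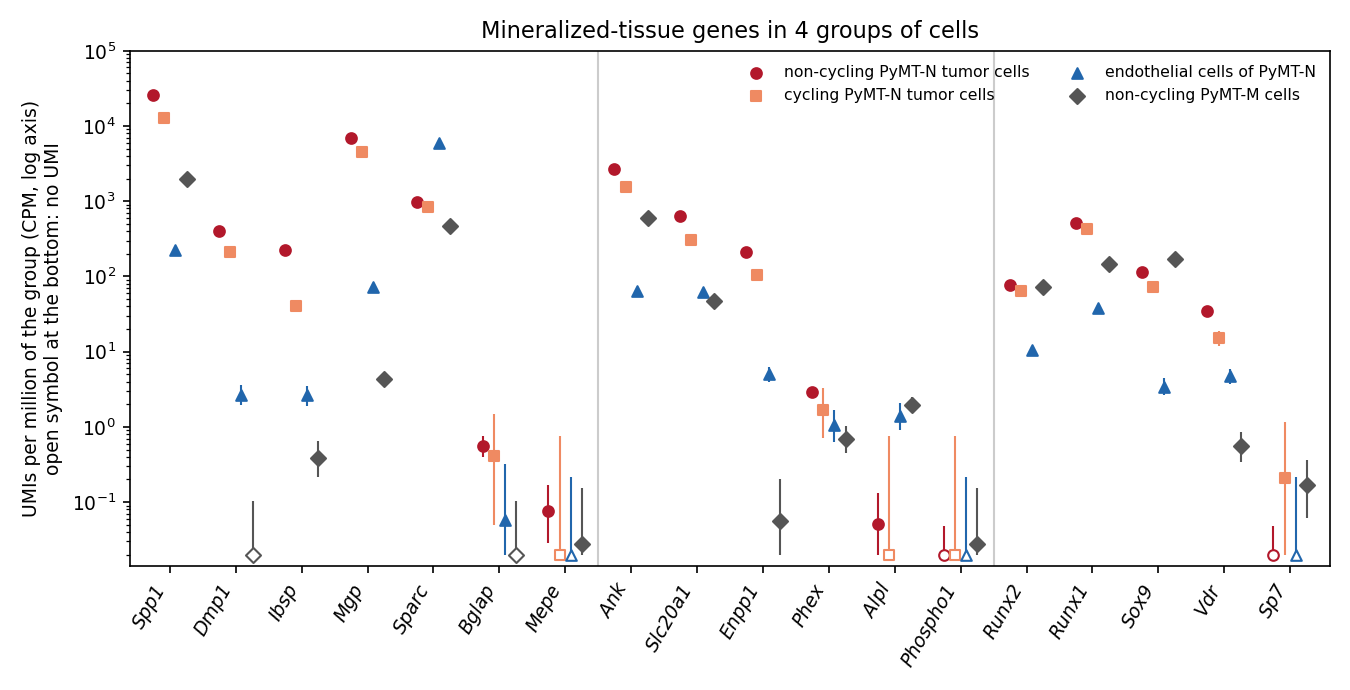
CPM of 18 mineralized-tissue genes (log axis) in the non-cycling PyMT-N tumor cells (circles), the cycling PyMT-N tumor cells (squares), the endothelial cells of PyMT-N (triangles) and the non-cycling PyMT-M cells (diamonds), with exact 95% counting intervals and open symbols where a group had no UMI; gray lines separate matrix proteins, mineralization enzymes and transporters, and regulators. Spp1, Mgp, Dmp1, Ibsp, Ank, Slc20a1 and Enpp1 were highest in the non-cycling PyMT-N tumor cells, and Alpl, Phospho1 and Sp7 lay at the bottom of the axis there.

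The epithelial name of the cells rested on few genes. Of 20 luminal epithelial genes, 14 were below 1 CPM, including Epcam (0.399 CPM), E-cadherin Cdh1 (0.103 CPM), Krt19 (0.116 CPM), Krt7 (0.476 CPM), the claudins Cldn3 (0.257 CPM), Cldn4 (0.0901 CPM) and Cldn7 (0.206 CPM), and the splicing regulator Esrp1, with no UMI. The exceptions, apart from the 2 keratins of the rule, were the luminal transcription factor Gata3 at 98.0 CPM, the EGF receptor ligand Areg at 80.9 CPM, Spint2 at 5.12 CPM and Foxa1 at 1.699 CPM. The milk protein genes Csn2 and Csn1s1 and the basal keratin Krt5 had no UMI, and Krt14 was at 0.322 CPM. The estrogen receptor Esr1 was at 25.9 CPM, while the progesterone receptor Pgr had no UMI. The defining epithelial junction genes were therefore at or near 0 in these cells, which were called tumor cells by their keratins. The non-cycling PyMT-M cells likewise had little Cdh1 (0.0836 CPM) and Epcam (3.85 CPM).

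Mesenchymal genes were, in contrast, widely present, and none of the 18 genes of the mesenchymal list was below 1 CPM. Against the endothelial cells, which also express several of them, 8 of 16 measurable members were at least 2-fold higher and 5 lower (13.9% and 18.7% of all ranked genes), the latter including Vim (-1.35) and Zeb1 (-1.30). The transcription factors Twist1 (199 CPM), Prrx1 (202 CPM), Zeb1 (253 CPM), Zeb2 (129 CPM) and Snai1 (104 CPM) and the intermediate filament Vim (2277 CPM) were all detected, as was fibronectin Fn1 (5245 CPM). The non-cycling PyMT-M cells carried the same factors, with Twist1 at 106 CPM, Prrx1 and Zeb1 at 169 CPM, Zeb2 at 246 CPM and Snai1 at 28.8 CPM. Vim was at 6320 CPM there and Fn1 at 1.87 CPM. Against PyMT-M, 8 of 16 measurable members were at least 2-fold higher and 2 lower (22.9% and 16.3% of all ranked genes). N-cadherin Cdh2 was at 41.6 CPM in the tumor cells and at 1.46 CPM in the endothelial cells. Of 9 measurable fibroblast markers 8 were at least 2-fold higher than in the endothelial cells and 1 lower (Thy1), with Pdgfrb, a receptor of fibroblasts and pericytes, at 249 CPM, Col3a1 (limited by the rule) at 118 CPM, Postn at 113 CPM, Col1a1 at 87.7 CPM, Dcn at 85.7 CPM, Pdgfra at 60.1 CPM and Fap at 25.8 CPM. The fibroblast genes Col1a2, Lum and Dpt, at 2.20, 1.04 and 0.116 CPM, had fewer than the 200 UMIs over both groups that made a gene measurable. Pi16 (0.175 CPM in the endothelial cells) and Pdgfra (0.699 CPM there) reached this minimum only through the tumor cells. The minimum therefore partly set the count of fibroblast markers. Rgs5, a pericyte marker, was at 0.142 CPM. The part of other cells in these levels was not tested.

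The rule chose cells with at most 1 UMI of 4 endothelial genes, so markers expressed together with these were bound to be low. The values of the other markers are therefore a description of the selected cells, not a test of their identity. Of 15 endothelial markers 4 are genes of the rule, which fixed their levels, and the other 11 summed to 59.6 CPM in the tumor cells and to 6814 CPM in the endothelial cells. Plvap, a component of endothelial fenestrae, made up most of the former, at 41.6 CPM. Of the 2 proteins used for the sort, CD31 (Pecam1, part of the rule) was at 1.53 CPM and VE-cadherin (Cdh5, outside the rule) at 2.02 CPM, against 1005 and 1079 CPM in the endothelial cells. When every cell was thinned to 10000 UMIs, which left out 118 tumor cells and 363 endothelial cells, 1.93% of the tumor cells (1.49 to 2.46%) and 95.6% of the endothelial cells (94.0 to 96.9%) had a Cdh5 UMI, and without thinning 3.84% and 96.8%. The 10 macrophage markers outside the rule (Ptprc and Tyrobp are part of it) were at 15.7 CPM in sum, led by Cd14 at 11.1 CPM, with Adgre1 at 0.0257 CPM and Csf1r at 0.283 CPM. The endothelial cells, on which no immune condition was set, carried 508 CPM of the same markers. Cells positive for CD45, the product of Ptprc, had been depleted with beads before the sort.

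**Figure D2:**
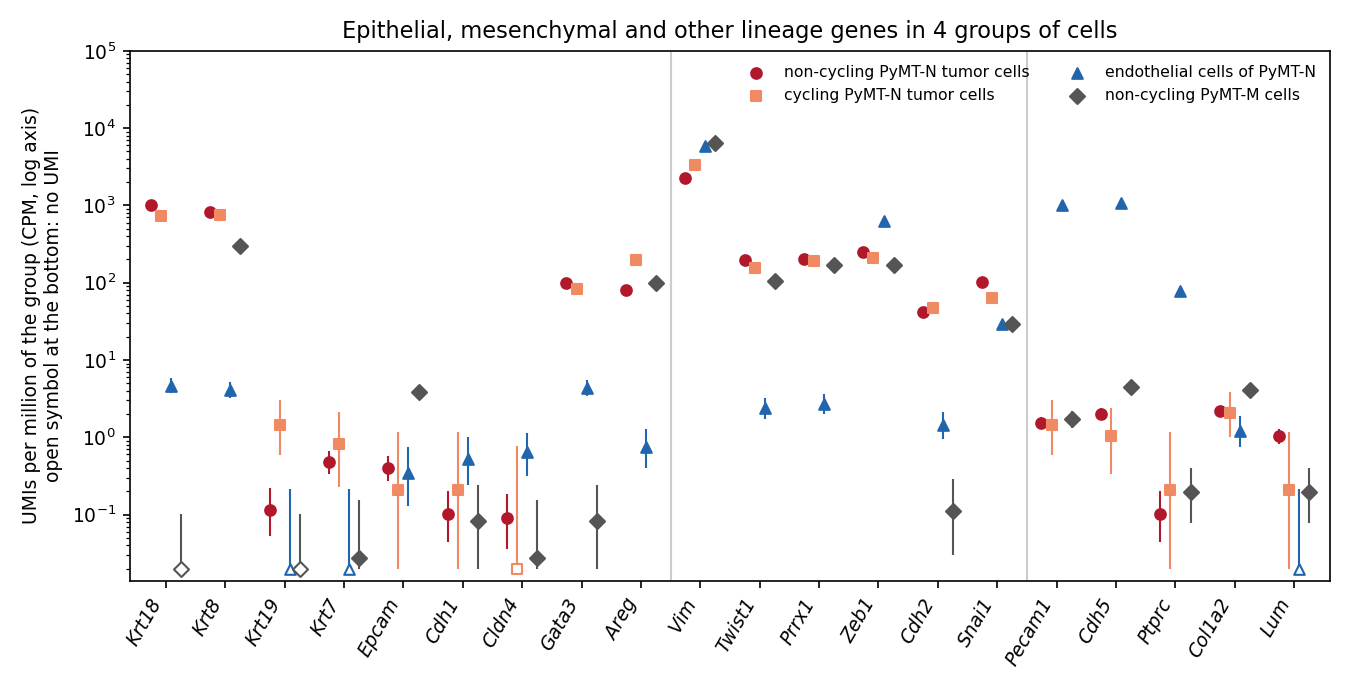
CPM of 20 lineage genes (log axis) in the same 4 groups of cells with exact 95% counting intervals, epithelial genes at the left, mesenchymal genes in the middle and endothelial, immune and fibroblast genes at the right. In the non-cycling PyMT-N tumor cells Krt18 (1018 CPM) stood with Twist1, Prrx1 and Zeb1 (199 to 253 CPM), while Epcam, Cdh1, Cldn4 and Krt19 lay below 1 CPM.

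Against the endothelial cells, 1652 of 11861 genes with at least 200 UMIs over both groups were at least 2-fold higher in the tumor cells (13.9%) and 2216 were at least 2-fold lower (18.7%), with a median log2 ratio of -0.10 over all of them. The rule chose the cells by this contrast, so the ratios are a description. Apart from the genes of the rule, and among genes with at least 20 CPM in the higher and 10 UMIs in the lower group, the highest was Prkg2, a cGMP-dependent kinase of growth plate cartilage, at 361 CPM in the tumor cells and a log2 ratio of 7.79 (7.26 to 8.38). It was followed by Crabp2, a carrier of retinoic acid (454 CPM, 7.54), and Hs3st5, a heparan sulfate sulfotransferase (326 CPM, 7.32). Then came the BMP receptor Bmpr1a (100 CPM, 7.29), the chromatin protein Hmga2 of embryonic and tumor cells (1468 CPM, 7.29), Tenm4, Ccbe1, Dmp1 (7.23), Cd248 and the galectin Lgals7 (2063 CPM, 7.22). By the same minimums, the lowest genes were ones the tumor cells nearly lacked, such as Cdh13 (0.695 against 1450 CPM), Nfia (0.142 against 309 CPM), Rapgef5 (0.502 against 696 CPM) and Tshz2 (0.772 against 1025 CPM).

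Genes were also read as lists of one role. Of 5 measurable mineralized matrix genes, 4 were at least 2-fold higher in the tumor cells (median log2 ratio 6.59) and 1 (Sparc) lower. Dmp1, Ibsp and Mgp, among the higher ones, had been chosen to describe these cells with earlier results of these data known. This count and median are therefore a description only. Of 7 measurable mineralization enzymes and transporters, 4 were higher (median 1.47) and 2 (Acp5 and Car2) lower. Measurable genes had at least 200 UMIs over both groups, which Dmp1 and Ibsp reached only through the tumor cells (46 and 45 endothelial UMIs). Genes near 0 in both groups dropped out, so this minimum partly set the counts and medians. Over all ranked genes 13.9% were higher and 18.7% lower. Of 14 measurable oncogene and progenitor factors, 9 were higher and 0 lower, among them Wnt10a (30.6 CPM, log2 ratio 6.23), Igf2bp2 (96.6 CPM, 6.24) and Cd44 (266 CPM, 4.66). Of 20 interferon alpha/beta response genes, 17 were lower in the tumor cells and 0 higher, from Ifit3 at -1.07 and Usp18 at -1.08 to Ifi27l2a at -5.29. Of 17 antigen presentation genes 10 were lower, with the class I genes B2m (1308 CPM, -0.35) and H2-D1 (724 CPM, -0.88) within 2-fold.

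Secreted factors were a mixed group. The counts here stand beside 13.9% of all ranked genes at least 2-fold higher than in the endothelial cells and 18.7% lower. Of 11 measurable macrophage-recruiting and growth factors, 7 were higher than in the endothelial cells and 3 lower, with Il34, a ligand of the CSF1 receptor, at 163 CPM and a log2 ratio of 5.87, and Csf1 at 41.5 CPM and 2.57. The chemokines Ccl2 and Ccl7 were at 1.45 and 0.0129 CPM. Of 19 angiogenic and vessel ligands 8 were higher and 9 lower. Among the higher were Fgf2 (78.4 CPM, 6.59), Vegfd (113 CPM, 5.31), Vegfa (58.2 CPM, 4.11) and Pdgfa (500 CPM, 3.59), and among the lower were the endothelial ligands Pdgfb (2.42 CPM, -6.07) and Angpt2 (5.03 CPM, -4.98).

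The 128 cycling PyMT-N tumor cells were 3.59% (3.005 to 4.256%) of all PyMT-N cells that met the other conditions. Against them, 526 of 10993 genes were at least 2-fold higher in the non-cycling cells (4.78%) and 613 were at least 2-fold lower (5.58%), with a median log2 ratio of 0.08. The mitotic genes outside the rule (18 of 18) and the S phase and DNA replication genes (17 of 17 measurable) were all at least 2-fold lower, which is the contrast the rule made. Hmmr, a spindle protein, was at 0.257 CPM against 141 CPM, Rrm2, a subunit of ribonucleotide reductase, at 1.51 against 95.6 CPM, and Mcm5, of the replicative helicase, at 3.69 against 52.2 CPM. One of the 10 lowest genes, the immunoglobulin gene Iglc1, owed all of its 651 UMIs in the cycling group to 1 cell.

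The matrix genes differed between the 2 kinds of PyMT-N tumor cells as well. Ibsp was at 222 CPM in the non-cycling and 40.5 CPM (35.0 to 46.6) in the cycling cells, a log2 ratio of 2.46 (2.25 to 2.67), the fourth highest by the naming rule. The levels of the others were nearer, with log2 ratios of 1.01 (1.00 to 1.02) for Spp1, 1.14 for Fn1, 1.03 for Slc20a1, 1.01 for Enpp1, 0.94 (0.85 to 1.03) for Dmp1, 0.59 for Mgp and 0.46 for Krt18. Cd200 (22.8 CPM, 2.53), Tcp11l2 (35.9 CPM, 2.53), the proteoglycan decorin Dcn (85.7 CPM, 2.20), the keratin Krt76 (35.6 CPM, 2.03) and the cartilage protein Comp (127 CPM, 1.89) were also higher in the non-cycling cells. In the cycling group 41.1% of the Dcn UMIs came from 1 cell. Genes with the other direction included Ccnd1, the G1 cyclin, at 197 against 453 CPM (-1.20), the smooth muscle actin Acta2 at 43.5 against 218 CPM (-2.33), and the serine synthesis enzymes Phgdh (-2.62) and Psat1 (-3.16).

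At an equal depth of 10000 UMIs, 32.0% (30.4 to 33.6%) of the non-cycling cells and 15.9% (9.97 to 23.4%) of the cycling cells had an Ibsp UMI, against 0.706% (0.26 to 1.53%) of the endothelial cells. Without thinning the shares were 39.6%, 26.6% and 0.989%. For Dmp1 the thinned shares were 66.4% (64.7 to 68.0%), 57.9% (48.8 to 66.7%) and 2.47% (1.54 to 3.75%), and without thinning 75.8%, 81.2% and 2.72%, so that the order of non-cycling and cycling cells turned with the depth.

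The non-cycling PyMT-M cells had no Krt18 and little or no Dmp1, Ibsp, Mgp and Fn1. Krt18 and Dmp1 had no UMI in 1651 PyMT-M cells with 35882855 UMIs, which places the log2 ratios at 13.57 or above for Krt18 and 12.23 or above for Dmp1 when the floor of 3 UMIs over the group is used. Ibsp was at 0.390 CPM there (log2 ratio 9.15), Mgp at 4.35 CPM (10.63), with 53.2% of those Mgp UMIs in 1 cell, and Fn1 at 1.87 CPM (11.46), with 47.8% of its UMIs in 1 cell. In the 1180 PyMT-M cells that met the whole rule, keratin condition included, Mgp was at 0.258 CPM and Fn1 at 0.221 CPM, so their levels in PyMT-M depended on which cells were taken. Spp1 was shared, at 1967 CPM in PyMT-M and 3.71 log2 units higher in PyMT-N. Krt8, at 296 CPM, and Hmga2, at 736 CPM, were also present in PyMT-M, with log2 ratios of 1.46 and 1.00. Of the PyMT-M cells 85.8% had a keratin UMI. Of 11 measurable fibroblast markers 7 were at least 2-fold higher in the PyMT-N cells, with Dcn at 6.63 and Postn at 6.10 log2 units. The 2 lower ones were Dpt (0.116 against 44.7 CPM) and Col3a1 (-1.25). Dcn (0.864 CPM in PyMT-M) reached the minimum of 200 UMIs only through the PyMT-N cells and Dpt only through PyMT-M. The minimum therefore partly set this count. The list had a median of 2.55, beside 0.12 over all ranked genes, of which 22.9% were at least 2-fold higher and 16.3% lower. Without the keratin condition the pericyte gene Rgs5 was at 3.07 CPM and Col1a2 at 4.07 CPM in PyMT-M, and with it at 0.0369 and 0.553 CPM, and whether all of these PyMT-M cells were tumor cells was not tested beyond Krt8 and Hmga2.

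Of 11733 genes ranked against PyMT-M, 2681 were at least 2-fold higher in the PyMT-N cells (22.9%) and 1907 at least 2-fold lower (16.3%), with a median of 0.12. Among the highest genes were Fn1 (11.46), the X-inactivation RNA Xist (1223 against 0.669 CPM, 10.84), Pmepa1, an inhibitor of TGF-beta signaling (853 CPM, 10.73), Mgp, Ctla2a (1956 CPM, 9.95), App and Ibsp. In PyMT-M 44.4% of the Pmepa1 UMIs, 33.3% of the Xist UMIs and 31.25% of the App UMIs came from 1 cell each. The lowest with at least 10 UMIs in the PyMT-N cells included Cdh13 (-10.96), Kcnq5 (-9.85), the transcription factor Jun at 0.322 against 270 CPM (-9.71), the NADPH oxidase subunit Cyba (-9.41) and the chemokine Ccl2 at 1.45 against 529 CPM (-8.51). Jun was nearly absent from the tumor cells while related immediate early genes were not, with Junb at 823 CPM, Fos at 370 CPM and Egr1 at 247 CPM.

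Several gene groups separated the PyMT-N from the PyMT-M cells. Their counts are to be read beside 22.9% of all ranked genes higher in PyMT-N and 16.3% lower, with a median log2 ratio of 0.12. Of 18 measurable BMP and TGF-beta pathway genes, 13 were higher in PyMT-N and 1 lower, with a median log2 ratio of 3.45. Among them were the activin subunit Inhba (181 against 0.0279 CPM), the BMP target Id3 (538 against 6.58 CPM), the receptors Tgfbr1 (102 against 4.90 CPM) and Tgfbr2 (103 against 8.53 CPM), and Bmp2 (57.5 against 0.111 CPM). Bmp7 was the lower one, at 0.412 against 29.5 CPM. Of 10 measurable integrin genes 7 were higher and 0 lower, led by Itga2 (8.69), Itgb8 (at least 8.10, with no UMI in PyMT-M) and Itgb5 (3.18). Inhba, Bmp2, Itga2 (0.0836 CPM in PyMT-M) and Itgb8 reached the minimum of 200 UMIs only through the PyMT-N cells, and Bmp7 only through PyMT-M. The minimum therefore partly set the counts and medians of these lists. Of 22 hypoxia and glycolysis genes 0 were higher and 11 lower, including Ldha (438 against 1384 CPM), Pgk1 (215 against 746 CPM) and the lactate exporter Slc16a3 (17.7 against 179 CPM). Of 19 unfolded protein and amino acid response genes 1 was higher and 10 were lower, the latter including Phgdh at -4.65, Psat1 at -4.54 and Asns at -3.71. S phase genes were at least 2-fold lower in 16 of 20, although both groups met the same mitotic condition. The median mitotic sum per cell was 0 CPM in PyMT-N and 137 CPM in PyMT-M.

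Ligands for macrophages split by gene. Ccl2, Ccl7 (0.0129 against 127 CPM), Ccl5 (3.22 against 41.3 CPM), Mif (284 against 1494 CPM) and Lgals3 (132 against 1570 CPM) were at least 2-fold lower in the PyMT-N cells. Spp1, Cxcl12 (57.0 against 0.362 CPM), Cx3cl1 (34.5 against 4.40 CPM) and Vegfa (58.2 against 27.2 CPM) were at least 2-fold higher, and Csf1 (-0.74) and Il34 (0.98) were within 2-fold. With 1 library per model, none of these differences has a replicate check.

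The selected cells differed widely among themselves in the 4 genes used to describe them. To compare cells of unequal depth, 3318 cells were thinned to 10000 UMIs, and the variance of a gene's UMIs over its mean was taken as the measure of spread, which is 1 for pure counting error. Over 3304 genes with a mean of at least 0.5 UMI the median of this measure was 1.17 and the 95th percentile 3.44. Ibsp reached 17.9, Dmp1 12.8, Mgp 85.5 and Krt18 6.94. The 100 genes nearest to each in mean level had medians of 1.43 for Ibsp, 1.46 for Dmp1, 2.28 for Krt18 and 2.96 for Mgp, where the neighbours’ means ran from 14.7 to 263 UMIs. The 4 genes were chosen to describe the variation, so these values are a description.

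Their distributions had different shapes. Krt18, whose sum with Krt8 the rule bounds from below, had a median of 8 UMIs (quartiles 4 and 14, highest 63), and 96.3% of the cells had at least 1 UMI. Mgp had a median of 49 UMIs (24 and 89, highest 1229) and was found in 99.5% of the cells, with 35.0% of its UMIs in the top 10% of cells. Dmp1 had a median of 2 UMIs (0 and 6, highest 91) and 49.8% of its UMIs in the top 10% of cells. Ibsp had a median of 0 UMIs (0 and 1, 95th percentile 14, highest 86), and the top 10% of cells, 332 cells, held 76.9% of its UMIs. At this depth Ibsp was detected in fewer cells than Dmp1 and Dmp1 in fewer than Mgp. The share with a UMI was 25.4% for Ibsp and 54.8% for Dmp1 at 5000 UMIs, and 40.8% and 72.4% at 20000 UMIs, where cells of fewer UMIs are also left out, so that depth and the cells kept changed together.

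**Figure D3:**
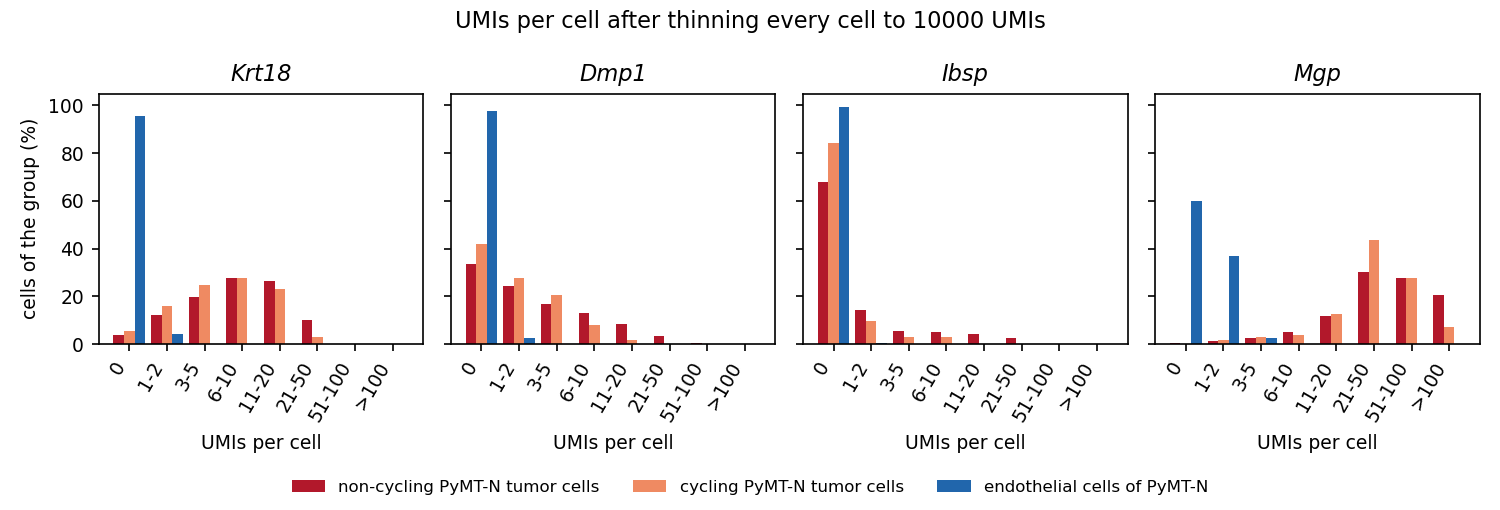
Share of cells (%) by UMIs per cell after thinning to 10000 UMIs, for Krt18, Dmp1, Ibsp and Mgp in the non-cycling PyMT-N tumor cells (dark red), the cycling PyMT-N tumor cells (orange) and the endothelial cells of PyMT-N (blue). Of the non-cycling cells 32.0% had an Ibsp UMI, 66.4% a Dmp1 UMI and 99.5% an Mgp UMI, and 60.1% of the endothelial cells had no Mgp UMI.

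Dmp1 and Ibsp overlapped without coinciding. Both were detected in 798 thinned cells (24.1%), Dmp1 alone in 1404 (42.3%), Ibsp alone in 263 (7.93%) and neither in 853 (25.7%). An Ibsp UMI was found in 36.2% (34.2 to 38.3%) of the cells with Dmp1 and in 23.6% (21.1 to 26.2%) of the cells without it. Spearman correlations over the 3318 cells, which share 1 library and 1 depth, were 0.17 for Dmp1 with Ibsp, 0.16 for Dmp1 with Mgp, 0.08 for Ibsp with Mgp, and 0.18, 0.12 and 0.11 for Krt18 with Dmp1, Ibsp and Mgp. These are weak and are given as a description.

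The genes most like each of the 4 were named by Spearman correlation over the same cells. For Krt18 they were its dimer partner Krt8 (0.61), Spp1 (0.35), the actin-capping protein Capg (0.24), Serpinb6a (0.23) and Clic1 (0.22). For Dmp1 they were Spp1 (0.42), Fn1 (0.38), Tgfb1 (0.27), Slc20a1 (0.25) and the nucleoside transporter Slc29a1 (0.23). For Ibsp they were again Spp1 (0.27) and Fn1 (0.25), then Pla2g7 (0.22), Alcam (0.21) and Gadd45a (0.19). For Mgp no gene exceeded Cxcl14 (0.18). Spp1 was thus the gene nearest to Dmp1 and Ibsp and the second nearest to Krt18. At the other end, the matrix protein periostin, Postn, was the lowest gene for Krt18 (-0.28) and for Ibsp (-0.19).

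The 15 genes with the highest variance over mean held other matrix and secreted proteins. After Spp1 (156), the nuclear RNA Malat1 and Mgp came the ferritin chain Fth1, the chemokine Cxcl14 (29.7), the cytokine Tslp (25.3), elastin Eln (24.0), Dcn (22.3), Fn1 (20.4), Ibsp, Cst3, Ctla2a, S100a6, the metallothionein Mt1 and the laminin chain Lama2 (13.4). Among them Spp1, Fth1, Fn1 and S100a6 had a UMI in 100% of the thinned cells, while Dcn had one in 15.97%, Lama2 in 19.7%, Tslp in 31.6% and Cxcl14 in 45.6%. Variance over mean tends to rise with the mean, so the ranking partly follows abundance. The top 10% of thinned cells held 27.4% of the Spp1 UMIs, against 28.8% of the Krt18 and 76.9% of the Ibsp UMIs.

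The cells were then divided at the quartiles of each of the 4 genes. The 850 Krt18-high cells (14 to 63 UMIs) and the 977 Krt18-low cells (0 to 4 UMIs) had median depths of 21995 and 19693 UMIs. Of 9780 other genes, 32 were at least 2-fold higher in the Krt18-high cells (0.327%) and 188 lower (1.92%). Krt8 was at 1294 against 436 CPM, a difference that the sum condition of the rule works against, and Tslp was at 244 against 59.6 CPM. Among the lower genes were Dcn (27.7 against 176 CPM, log2 ratio -2.66), Lama2 (33.9 against 195 CPM, -2.52), Postn (49.3 against 232 CPM, -2.23), Col6a3 (-1.99), Col3a1 (59.0 against 221 CPM, -1.91, bounded from above by the rule), Fap (-1.59) and Col1a1 (57.3 against 139 CPM, -1.27), with the smooth muscle gene Tagln at 0.820 against 21.3 CPM (-4.70).

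Dcn, Postn, Col3a1, Fap and Col1a1 belong to the fibroblast list, of which 5 of 7 measurable members were at least 2-fold lower in Krt18-high cells and 0 higher, with a median of -1.59 beside -0.11 over all genes. The list summed to 479 CPM in Krt18-high and 1176 CPM in Krt18-low cells. The fibroblast genes Col1a2 (2.17 against 2.79 CPM), Lum (0.386 against 1.73 CPM) and Dpt (0 against 0.193 CPM) stayed near 0 in both. In the Krt18-low cells Hmga2 was at 1294 CPM (1503 CPM in Krt18-high cells), Lgals7 at 1745 CPM (2360 CPM) and Spp1 at 19373 CPM (32133 CPM). All 3 measurable members of the basal and myoepithelial list were at least 2-fold lower in the Krt18-high cells (median -1.35). That list summed to 42.4 against 121 CPM, with Acta2 at 25.5 against 65.2 CPM. Over all ranked genes 1.92% were lower and 0.327% higher. The part of other cells in the Krt18-low group was not tested.

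The 845 Dmp1-high cells (6 to 91 UMIs, median depth 19183 UMIs) and the 1116 cells with no thinned Dmp1 UMI (22327 UMIs) differed at least 2-fold in 115 of 9933 genes, 27 higher (0.272%) and 88 lower (0.886%). Ibsp was at 378 against 133 CPM (log2 ratio 1.51, 1.45 to 1.57), Tslp at 269 against 69.3 CPM (1.95), and Enpp1 at 308 against 151 CPM (1.03). Spp1 (36124 against 18815 CPM, 0.94), Tgfb1 (0.88), Fn1 (0.83) and Slc20a1 (0.70) were higher by less than 2-fold. Fam20c, a secretory kinase of matrix phosphoproteins, was at 66.1 against 25.6 CPM (1.37), and it is named here after its value was seen. Acta2 (18.9 against 76.9 CPM) and Postn (65.6 against 145 CPM) were lower in the Dmp1-high cells, and Ccnd1 was at 135 against 241 CPM (-0.84).

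The Ibsp split gave the fewest genes. The 1061 cells with an Ibsp UMI and the 2257 without had close median depths (21219 and 20928 UMIs), and 10 of 10774 genes were at least 2-fold higher (0.0928%) and 59 lower (0.548%). Dmp1 was at 519 against 345 CPM (0.59), Spp1 at 32613 against 22702 CPM (0.52), and Fn1 at 0.40. Lama2 was at 31.2 against 124 CPM (-1.99) and Postn at 54.9 against 140 CPM (-1.35).

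The Mgp split ran the other way for Postn. Of 9650 genes, 39 were at least 2-fold higher in the 838 Mgp-high cells (0.404%) and 58 lower (0.601%) than in the 869 Mgp-low cells. Cxcl14 was at 1020 against 356 CPM (1.52), Postn at 156 against 57.0 CPM (1.45), Col1a1 at 130 against 49.2 CPM (1.40), Tslp at 256 against 102 CPM (1.32) and Eln at a log2 ratio of 1.05. Ibsp (0.97) and Dmp1 (0.86) were higher by less than 2-fold. Of 7 measurable fibroblast markers 3 were at least 2-fold higher in the Mgp-high cells and 0 lower, with a median of 0.77 beside -0.08 over all genes and a sum of 934 against 580 CPM, and Tagln was at 11.7 against 0.498 CPM (4.56). Postn was thus lower in the Krt18-high, Dmp1-high and Ibsp-high cells and higher in the Mgp-high cells, while Tslp was higher in the high cells of every split, by 0.98 for Ibsp to 2.03 for Krt18. Because 3 tumors were pooled, variation within a tumor and variation among tumors cannot be told apart.

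**Figure D4:**
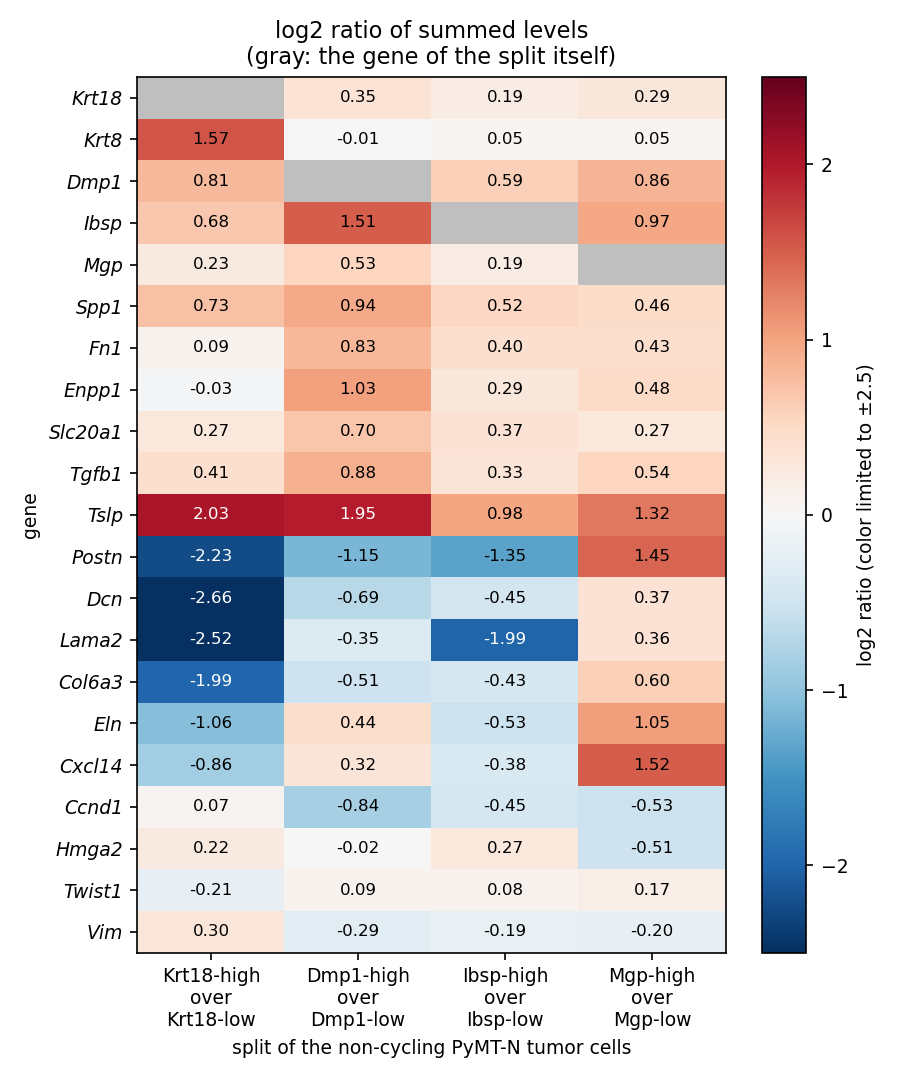
Log2 ratio of summed CPM between the high and the low quartile group of the non-cycling PyMT-N tumor cells (cells with and without a UMI for Ibsp) for 21 genes, with one column for each of Krt18, Dmp1, Ibsp and Mgp and gray where the gene is that of the split. Spp1 and Tslp were positive in all 4 columns, Postn was negative for Krt18, Dmp1 and Ibsp (-2.23 to -1.15) and positive for Mgp (1.45), and Twist1 stayed between -0.21 and 0.17.

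Cells just inside and just outside the rule were few. The 46 cells with exactly 3 keratin UMIs had 138 CPM of Dmp1, 111 CPM of Ibsp, 5418 CPM of Mgp and 11251 CPM of Spp1, and the 53 cells just outside, with 2 keratin UMIs, had 216, 22.1, 6318 and 11262 CPM. A further 28 cells met every other condition with no keratin UMI and held 21.4 CPM of Dmp1, 57.1 CPM of Ibsp, 8001 CPM of Mgp, 4560 CPM of Spp1 and 940 CPM of Hmga2. The 15 cells between 300 and 500 CPM of the mitotic genes had 219 CPM of the replication factor Pcna and 199 CPM of Dmp1, against 207 and 65.8 CPM in the 5 cells between 500 and 700 CPM. At the Col3a1 limit, Col1a2 stood at 22.2 CPM, Dcn at 249.8 CPM and Ibsp at 97.2 CPM in the 18 cells between 2000 and 3000 CPM of Col3a1, and at 2870, 718 and 0 CPM in the 11 cells above.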

How the data were processed

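Per the labels and the study's methods, the authors made 1 library per model (3 tumors pooled after sorting) on the 10x 3′ v3.1 platform and processed the reads with Cell Ranger 8.0.0 on mm39. The deposited matrices hold raw UMI counts per gene and barcode, and their totals were 116150425 (PyMT-N) and 141067264 (PyMT-M) UMIs, with medians of 15878 and 18790 per barcode. Counting a 3′ end once per molecule, they were not scaled to gene length.

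With Python 3.11.15, numpy 2.4.6 and scipy 1.17.1, counts were summed over the cells of each group and divided by the group's total (CPM). Log2 ratios carry exact intervals for a ratio of Poisson counts, CPM exact Poisson and shares exact (Clopper-Pearson) intervals, all for counting error only. A count of 0 was set to 3 UMIs. Genes with at least 200 UMIs over both groups were ranked and called past 2-fold. Scrublet in scanpy 1.11.5 marked 138 PyMT-N barcodes and 1 PyMT-M barcode (0.0128%). Whether its automatic threshold suited these libraries was not tested, and no doublets were removed in the values reported. Named genes were the 10 highest and 10 lowest ratios (at least 20 CPM in the higher and 10 UMIs in the lower group), members of 37 gene lists, the 15 genes of highest variance over mean and the 5 highest and lowest correlations. The members, lists and rules were chosen with earlier results of these data known. Ratios and thinning were tested on simulated data. A few genes that the naming rule or the lists would include are not reported here.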

Additional observations from a re-analysis of the deposited data

How the results depend on the processing

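The number of cells, the 2-fold counts, the share of cells with each of the 4 genes and the named ratios were recomputed under 23 alternatives. Of 231 such summary values 193 stayed within their limit (1.5 times a count, the counting interval of a share), and of 1066 recomputed ratios of named genes past 2-fold none came within 2-fold. Besides these, 210 counts of the members of single lists past 2-fold moved by over 1.5 times, most of them counts of 0 to 2 genes. One ratio reversed: Iglc1 against cycling cells went to 3.62 with the mitotic limit at 1000 CPM, where the 1 cell that held it moved to the other group.

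Counts of genes moved with the minimum of UMIs, since it sets how many genes are ranked. With at least 50 UMIs the non-cycling cells had 991 genes higher than cycling cells, and the Krt18, Dmp1, Ibsp and Mgp splits had 491, 275, 224 and 247 genes past 2-fold in place of 220, 115, 69 and 97. With at least 1000 UMIs the counts higher and lower were 1098 and 1220 against endothelial cells, 199 and 255 against cycling cells, and 1725 and 1149 against PyMT-M, and the splits had 65, 23, 13 and 20. With no minimum and 5 CPM added, 108 genes were higher than in cycling cells and 1718 than in PyMT-M, and the splits had 97, 38, 11 and 43. With at least 10 keratin UMIs the Krt18 split had 136 genes, and the shares with a UMI were 98.9% for Krt18, 33.9% for Ibsp and 99.9% for Mgp. With 1 keratin UMI the Krt18 share was 94.7%. With Col3a1 below 500 CPM the shares were 97.0% for Krt18, 68.2% for Dmp1 and 33.6% for Ibsp, and with no endothelial or immune UMI 99.7% for Mgp. Thinned to 5000 UMIs, the shares were 89.9% (Krt18), 54.8% (Dmp1), 25.4% (Ibsp) and 98.8% (Mgp), and thinned to 20000 UMIs 98.6%, 72.4%, 40.8% and 99.9%. Cells with fewer UMIs than the target were left out, so depth and the cells kept changed together. An alternative chosen after seeing the data, endothelial cells with at most 1 immune UMI, changed no count against endothelial cells by over 1.5 times.

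Scaling without mitochondrial, ribosomal-protein and hemoglobin genes, centring on the median ratio, the mean of per-cell CPM and removal of the highest 6% of Scrublet scores moved none of these summary values past its limit. Replicates could not be left out, because each model has 1 library, and no paired analysis was possible because the labels give no replicate numbers. Depth limits statements on genes near 0 in the 128 cycling cells most.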

Other observations

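Immediate early genes, which respond within minutes to growth factors and to tissue handling, went in both directions in the non-cycling PyMT-N tumor cells. Over all ranked genes, 13.9% were at least 2-fold higher and 18.7% lower than in the endothelial cells, and 22.9% higher and 16.3% lower than in PyMT-M, and every count here is to be read beside these shares. Of 16 measurable members 7 were at least 2-fold higher than in the endothelial cells and 4 lower, and 7 were higher and 5 lower than in PyMT-M. Fos was at 370 CPM against 90.3 CPM in the endothelial cells and 3.85 CPM in PyMT-M, and Egr1 at 247 CPM against 49.8 and 1.73 CPM. Jun (0.322 CPM), Fosl1 (10.1 CPM against 195 CPM in PyMT-M) and Myc (14.3 against 149 CPM) went the other way against PyMT-M. The part of tissue handling in these levels was not tested.

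Of 12 calcium-binding S100 proteins and galectins 6 were at least 2-fold higher than in the endothelial cells and 1 lower, with S100a6 at 8288 CPM, Lgals1 at 3664 CPM, S100a4 at 2694 CPM and Lgals7 at 2063 CPM. Against PyMT-M 5 were higher and 1 lower, the latter being Lgals3. Heat shock genes gave 0 of 11 past 2-fold against the endothelial cells and 2 higher and 5 lower against PyMT-M, where Hspa1a was at 107 against 0.39 CPM and Hspd1 at 201 against 737 CPM. Of 16 interferon gamma response genes 11 were lower than in the endothelial cells and 0 higher, and Cxcl9 was at 1.46 against 86.3 CPM. Genes of cholesterol and fatty acid synthesis gave 2 higher and 3 lower of 15 against the endothelial cells, near the shares over all genes, and 0 higher and 4 lower against PyMT-M.

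Among stress and survival genes, Gadd45a, a growth arrest gene, was at 642 CPM against 361 CPM in the cycling tumor cells (log2 ratio 0.83), 27.5 CPM in the endothelial cells and 103 CPM in PyMT-M. The cell cycle inhibitor Cdkn1a was at 19.1 CPM and lower than in each of these groups, with log2 ratios of -1.64, -2.32 and -2.42, although the cells were selected as non-cycling. Cdkn2a and Cdkn2b each had 0.0129 CPM.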
